A study of Mus musculus with 16 samples.

Results

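DNA replication and mitosis genes were followed in 2 bone marrow (BM) progenitors of the dendritic cell lineage, the macrophage-dendritic cell progenitors (MDPs) and the common dendritic cell progenitors (CDPs). The 60 members were chosen by name: 27 genes of DNA replication and S-phase entry, 27 genes of mitosis, and 6 regulators of the preceding G1 phase. They were found on the array by exact symbol, as 80 of its 39429 probes, and as 60 of 28631 names. Where a member had several probes, the probe with the highest mean over all arrays stands for it.

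All samples came from female C57/Bl6 mice and were sorted from BM. The 4 groups are MDPs and CDPs of mice that carried end-stage PyMT-B6 tumors, grown in the mammary fat pad to 1.5 cm, and MDPs and CDPs of age-matched mice without a tumor. The PyMT-B6 line was made from mammary tumors of the MMTV-PyMT mouse model, in which the MMTV promoter drives the polyoma middle T oncogene, and the tumor is therefore a transplant of 1 cell line. Each group holds 4 samples, numbered 2 to 5 in the labels, each pooled from more than 1 mouse, and each sample was hybridized alone to its own Cy5 array.

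A dividing cell first licenses its origins in G1, when Cdc6 and Cdt1 load the Mcm2-7 helicase, and then fires them in S phase with the help of Cdc45 and the GINS complex. Mitosis follows under cyclin B and Cdk1, with the Aurora and Polo kinases, the spindle motors and the checkpoint that holds back the anaphase-promoting complex (APC/C) until all chromosomes are attached. D-type cyclins and CDK inhibitors set whether a cell leaves G1, and E2F factors activate many of the S-phase genes, while late cell-cycle genes are known for a CHR element next to CCAAT boxes. MDPs give rise to monocytes and to CDPs, and CDPs give rise to dendritic cells.

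Levels are log2 processed signals minus the 75th percentile of the same array, so that 0 is the signal of that percentile, and the level of a gene is compared only with itself in other samples. Values are listed in the order of replicate numbers 2, 3, 4 and 5. All 60 members passed the filter on low signals, which asked for 3 or more arrays of some group to be well above background, and 58 were above background on all 16 arrays. The exceptions were Ccne2, on 15 arrays, and Cenpf, on 12. A gene was called where limma gave a false discovery rate (FDR) under 0.05 together with a fold change above 1.5. With 4 arrays against 4, the exact permutation test cannot give a p below 0.0286. In bulk RNA, fewer cells of a type and less RNA per cell cannot be told apart, and the same holds for the share of cells in a given phase of the cycle.

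Arrays were laid out in fours on 4 slides, and slide 1 stood apart. It held the tumor-free MDP array numbered 3, the tumor-bearing MDP arrays numbered 2 and 4, and the tumor-free CDP array numbered 5, and no CDP array of a tumor-bearing mouse. Its 4 arrays did not overlap the other 12 for 29.1% of all tested probes, against 0.365%, 0.0437% and 5.33% for slides 2, 3 and 4. The share of probes well above background was 58.8% to 64.3% on slide 1 and 64.0% to 71.5% on the others. Among the members 14 of 60 (23.3%) did not overlap, 9 of them higher and 5 lower on slide 1. Most of all tested probes that were apart went the other way, with 1734 higher and 6245 lower of 27433.

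The members that set slide 1 apart came from both phases of the cycle. Pola1, the catalytic subunit of polymerase alpha, lay between 1.16 and 1.63 on slide 1 and between 0.07 and 0.77 on the others. Cdc6, a licensing factor, lay between 0.79 and 1.36 against −0.04 and 0.56. Aurkb, the kinase of the chromosomal passenger complex, lay between −0.66 and −0.44 on slide 1 and between 0.37 and 1.05 elsewhere. The other members that were higher on slide 1 were Mcm2, Mcm10, Cdt1, Prim1, Rrm1, Bub1 and Bub1b, and the others that were lower were Rfc4, Pold1, Cdk1 and Mad2l1. The part of the slide in the results was not tested, and values without slide 1 are given beside several of the results.

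**Figure D1:**
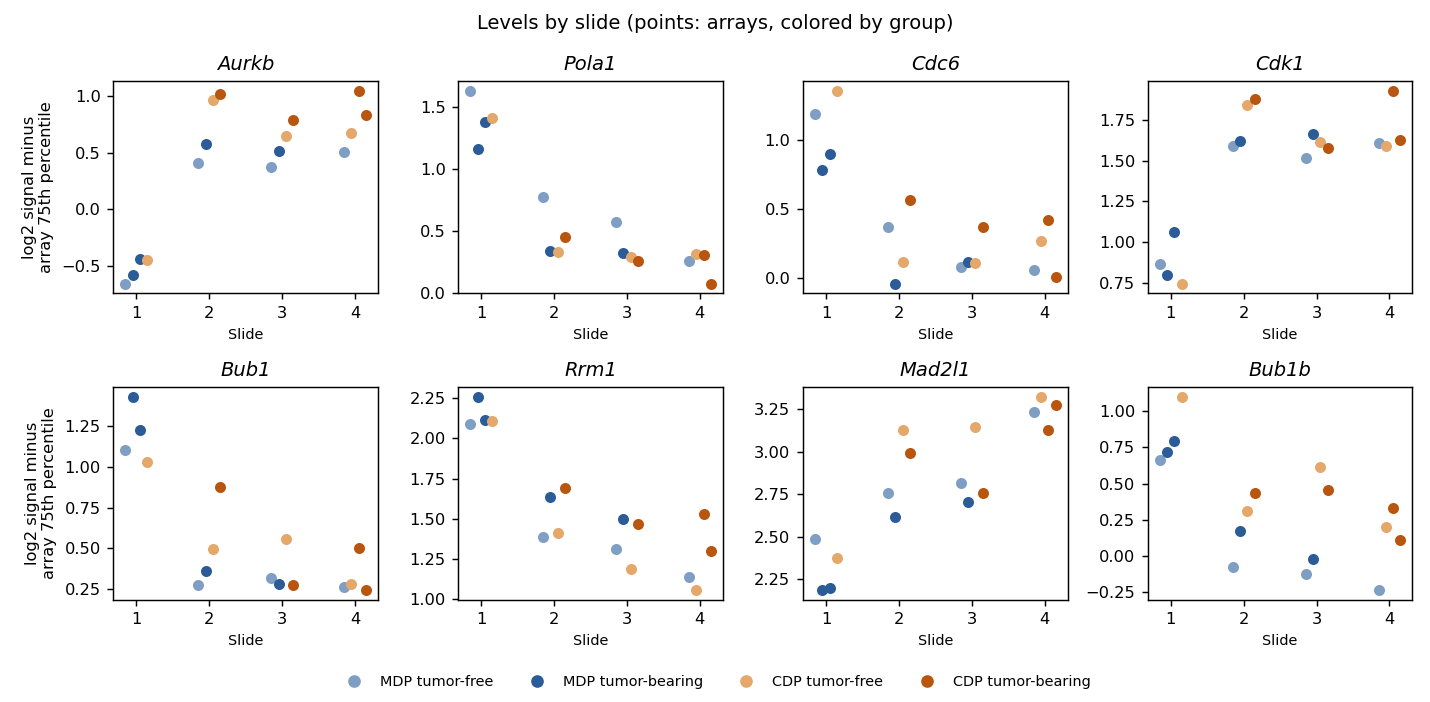
Level of 8 members (log2 signal minus the 75th percentile of the array, y axis) on each of the 4 slides (x axis), with 1 point per array colored by group. The 8 are those whose mean on slide 1 differed most from the mean of the other 12 arrays, and in each of them the 4 arrays of slide 1 lie above or below all others whatever their group.

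The sorted cells carried the RNA of their labels. Flt3, Kit, Csf1r, Cx3cr1, Csf2ra and Irf8, the markers listed for MDPs and CDPs, were above background on all 16 arrays. Kit, which CDPs carry at a low level, was lower in CDPs than in MDPs by 2.59 log2 units without a tumor and by 3.81 with one, and it was lower with tumor in CDPs (−1.34, limma adjusted p = 0.00441). Of 4 genes listed for mast cells and basophils together, Ms4a2 was not well above background on any array. Cpa3 was above it on 1 or 2 of the 4 arrays of each group, and Mcpt8 and Prss34 on all 16. Mcpt8 was lower in CDPs than in MDPs of tumor-free mice (−1.15, limma adjusted p = 0.0199). The summed signal of 6 neutrophil genes, in multiples of the 75th percentile, had a median of 26.4 in tumor-free CDPs (22.9 to 29.5) and of 41.7 in tumor-bearing CDPs (36.3 to 52.0), and of these genes Elane was called (1.12) while S100a8 was not (2.19, limma adjusted p = 0.104). The others were at 0.42 (Mpo), −0.45 (Ltf), −0.65 (Camp) and −0.25 (Ngp), so that 3 of 6 had lower means with tumor. The summed signal of 6 erythroid genes went from 7.87 (2.57 to 10.9) to 2.25 (1.82 to 4.09) in the same cells, and that of 4 T and NK genes was 13.4 to 14.3 in tumor-free MDPs against 1.66 to 2.22 in tumor-free CDPs (Nkg7 differed by −3.12, Cd3e by −0.18 and Ncr1 by 0.12).

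CDPs were compared with MDPs first, in tumor-free mice and again in tumor-bearing mice, on arrays that the 2 comparisons do not share. Most of the 27 mitosis genes of the list stood higher in CDPs in both, whereas replication genes were spread around 0. Other mitosis genes, given further below, stood higher in tumor-free mice, and in tumor-bearing mice their share above 0 was near that of all probes. In tumor-free mice 27 of 27 mitosis genes had a higher mean in CDPs, with a median difference of 0.40 log2 units, while 52.1% of all tested probes were above 0 and their median was 0.02. In tumor-bearing mice 23 of 27 were higher, with a median of 0.32, where 61.5% of all probes were above 0 and their median was 0.19. For the 27 replication genes the medians were 0.02 and −0.03, with 15 and 12 of 27 above 0.

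The differences of single mitosis genes were small. In tumor-free mice 1 of 27 was called, Nusap1, and 4 of all 60 members, all higher, against 6.07% of all tested probes (2.93% higher, 3.14% lower). With the FDR alone, 5 members passed, against 6.44%. In tumor-bearing mice Nusap1 was again the only mitosis gene among 7 called members, 6 higher and 1 lower, against 7.24% of all probes (3.53% higher, 3.71% lower). With the FDR alone, 10 members passed, against 7.69%. The 4 CDP arrays lay above the 4 MDP arrays for 8 of 27 mitosis genes in tumor-free mice, where 6.57% of all probes did so, and for 9 of 27 in tumor-bearing mice, where 6.96% did. Over all 60 members the groups were apart for 12 in tumor-free mice (12 higher, background 13.3% in either direction and 6.75% lower) and for 16 in tumor-bearing mice (15 higher and 1 lower, background 13.9% and 6.98% lower). Both comparisons gave a higher CDP mean for 23 of 27 mitosis genes (85.2%), against 41.5% of all probes, and for 9 of 27 replication genes (33.3%). The groups were apart in both comparisons for 5 of the 27 mitosis genes (18.5%), against 2.93% of all probes.

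The same was seen array by array. When each gene was set against its own mean over the 16 arrays, the median over the mitosis genes was −0.21 ± 0.06 (SD, n = 4) in tumor-free MDPs and −0.13 ± 0.05 in tumor-bearing MDPs. It was 0.18 ± 0.07 in tumor-free CDPs and 0.18 ± 0.12 in tumor-bearing CDPs. No MDP array reached the lowest CDP array at this scaling, whereas after quantile normalization the highest MDP array, on slide 1, was at 0.13 and above 4 of the 8 CDP arrays. For the replication genes the 4 group means lay between −0.07 and 0.04, and the groups overlapped except that the 4 tumor-bearing MDP arrays lay above the 4 tumor-free MDP arrays, which was not so with normexp or quantile normalization. Without slide 1, mitosis genes were higher in CDPs for 27 of 27 in tumor-free mice (median 0.35) and for 25 of 27 in tumor-bearing mice (median 0.35). Over all alternatives run, the counts were 26 to 27 and 21 to 26, and the medians were 0.33 to 0.43 and 0.23 to 0.40.

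**Figure D2:**
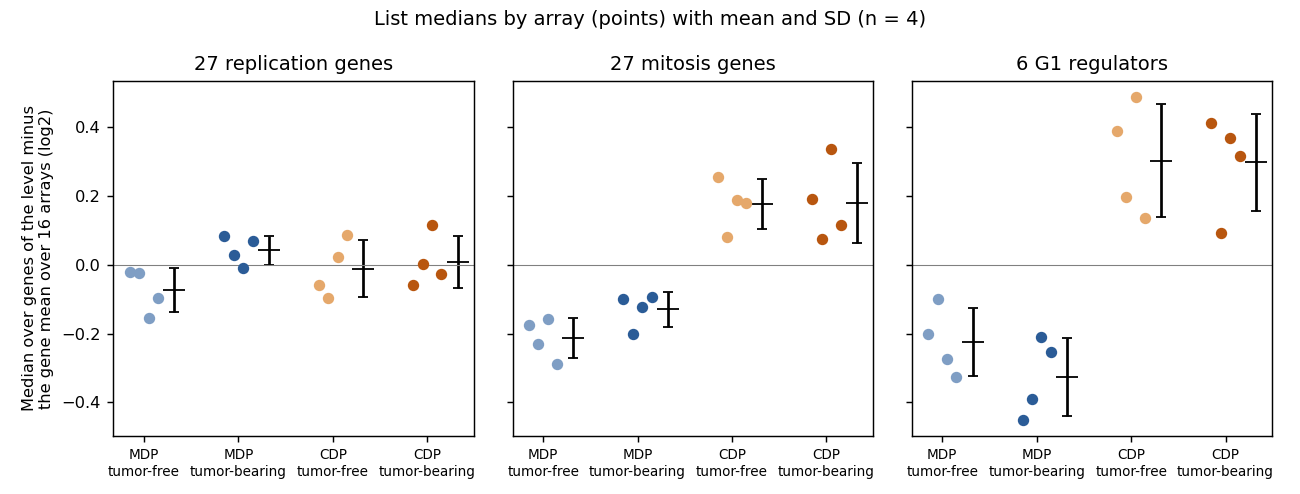
Median over the genes of each list of the level minus the mean level of the gene over the 16 arrays (log2, y axis), for each array (points) by group (x axis), with the group mean and SD (n = 4). For the 27 mitosis genes the 8 MDP arrays lie below 0 and the 8 CDP arrays above it at the 75th percentile scaling, which quantile normalization did not keep, while the groups of the 27 replication genes lie near 0.

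Promoter sequences are shown because the mitosis genes as a list stood higher in CDPs and the replication genes did not. RefSeq windows from 250 bases before to 50 bases after the transcript start (300 bases, build GRCm38.p6) were found for 48 of the 60 members and 27025 genes in all. The motifs searched on both strands were the E2F sites TTTGGCGC, TTTCGCGC, TTTCCCGC and TTTGCCGC, the CHR elements TTTGAA and TTCGAA (the latter reads the same on both strands), the CCAAT box CCAAT, and the TATA box TATAAA. A gene with several listed starts was scored over all of them, and TTTGGCGC and TTTCGCGC can overlap on opposite strands. A CHR element was in 17 of 22 mitosis promoters (77.3%) and 5 of 22 replication promoters (22.7%), against 21.7% of all promoters. A CHR element with a CCAAT box in the same window was in the same 77.3% and 22.7%, against 8.61% of all. An E2F site was in 10 of 22 replication promoters (45.5%) and 1 of 22 mitosis promoters (4.55%), against 2.6% of all, and CCAAT boxes were in 63.6% and 86.4%, against 41.1%. TATAAA was in 1 replication promoter and no mitosis promoter, against 15.7% of all.

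Of these windows, 7 are printed for the 150 bases before the start, read on the strand of the gene, with E2F, CHR and CCAAT matches on either strand in capitals. Mcm6 (chr1:128359706-128359855, minus strand), a subunit of the replicative helicase, and Pola1 (chrX:93632156-93632305, minus strand) stand for the E2F type. In Mcm6 the first run of capitals is a pair of overlapping E2F matches.
Mcm6: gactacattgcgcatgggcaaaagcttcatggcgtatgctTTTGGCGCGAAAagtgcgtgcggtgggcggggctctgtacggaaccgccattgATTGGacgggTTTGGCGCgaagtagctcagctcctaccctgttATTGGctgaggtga
Pola1: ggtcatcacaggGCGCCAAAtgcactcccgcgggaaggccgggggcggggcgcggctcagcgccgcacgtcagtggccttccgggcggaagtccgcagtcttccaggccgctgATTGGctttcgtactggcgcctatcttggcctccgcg
Cdc20 (chr4:118437344-118437493, minus strand), Ube2c (chr2:164769779-164769928, plus strand), Kif11 (chr19:37376232-37376381, plus strand) and the second listed start of Prc1 (chr7:80294326-80294475, plus strand) stand for the CHR type, with the CHR element 35, 28, 26 and 32 bases downstream of the nearest CCAAT box before it.
Cdc20: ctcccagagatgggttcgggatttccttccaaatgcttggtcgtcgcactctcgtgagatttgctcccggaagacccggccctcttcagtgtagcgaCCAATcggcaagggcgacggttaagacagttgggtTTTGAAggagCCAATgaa
Ube2c: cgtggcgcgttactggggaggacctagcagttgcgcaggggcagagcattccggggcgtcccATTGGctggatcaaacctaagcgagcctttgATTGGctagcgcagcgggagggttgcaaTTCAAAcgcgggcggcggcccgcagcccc
Kif11: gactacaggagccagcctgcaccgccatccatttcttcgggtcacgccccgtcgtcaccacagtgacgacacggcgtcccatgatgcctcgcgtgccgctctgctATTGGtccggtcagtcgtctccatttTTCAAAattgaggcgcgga
Prc1: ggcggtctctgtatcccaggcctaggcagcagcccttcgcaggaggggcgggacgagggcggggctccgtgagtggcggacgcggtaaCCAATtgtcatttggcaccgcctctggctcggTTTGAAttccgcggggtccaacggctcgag
Nusap1 (chr2:119618148-119618297, plus strand), the mitosis gene called in both comparisons, is shown because none of these letters were found in its printed window.
Nusap1: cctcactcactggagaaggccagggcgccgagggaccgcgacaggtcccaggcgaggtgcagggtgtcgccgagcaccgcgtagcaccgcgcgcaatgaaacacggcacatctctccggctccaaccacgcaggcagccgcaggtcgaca
A match is a run of letters and not a bound site, and no binding was measured here. Windows were not found for Mcm4, Gins1, Gins2, Pole, Ccne2, Ccna2, Cdc25c, Aurkb, Kif20a, Tpx2, Ccnd1 and Ccnd2.

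**Figure D3:**
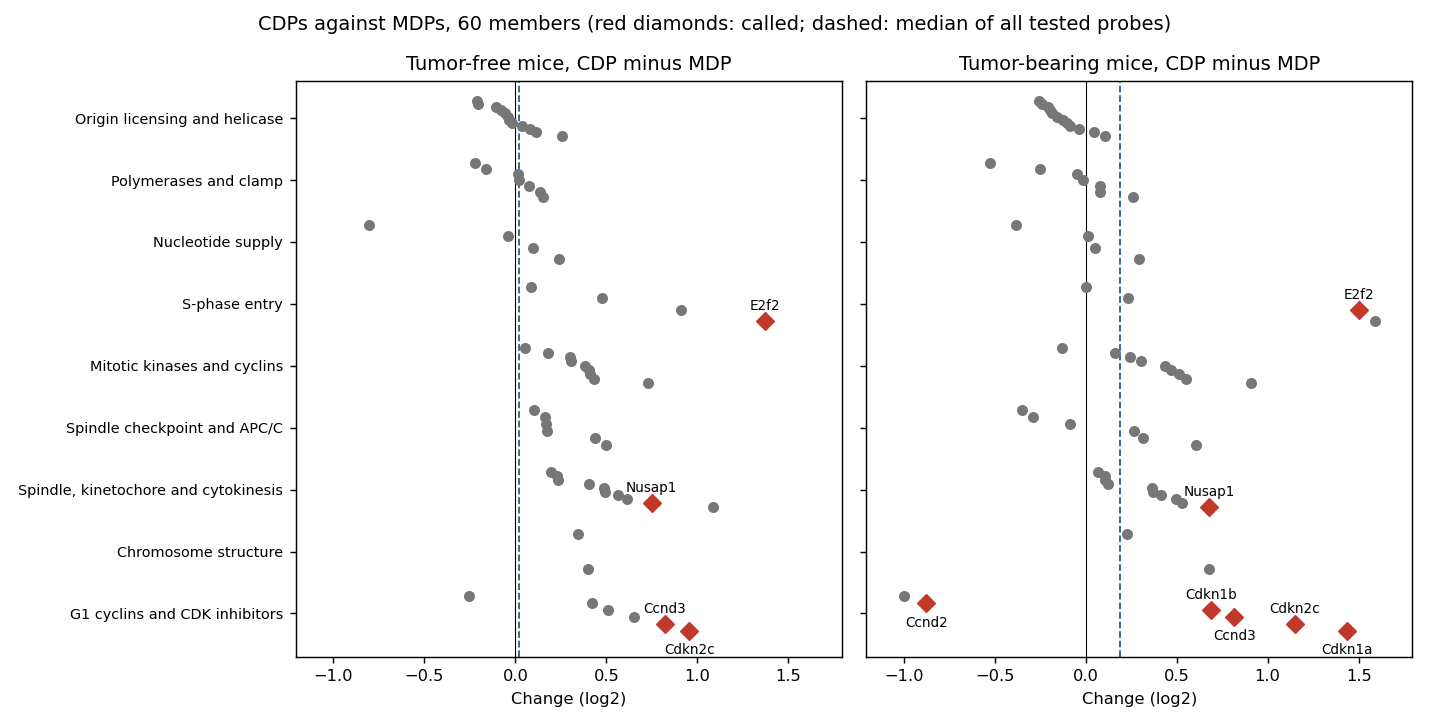
Difference of CDPs minus MDPs for each of the 60 members (log2, x axis) by role (y axis), in tumor-free mice (left) and tumor-bearing mice (right). Red diamonds are called members, the dashed line is the median of all tested probes, and the mitosis roles lie right of 0 except for Ccna2, Bub1, Bub1b and Ttk in tumor-bearing mice.

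The mitotic kinases and cyclins were all higher in tumor-free CDPs than in tumor-free MDPs (9 of 9, median 0.38), and 8 of 9 were in tumor-bearing mice (median 0.44), with 0 called in either (limma p under 0.05 for 3 and 2 of them, against 17.1% and 27.8% of all probes). Ccnb2, a B-type cyclin that activates Cdk1, was at 0.48, 0.40, 0.62 and 0.45 in tumor-free MDPs, 0.49, 0.23, 0.23 and 0.62 in tumor-bearing MDPs, 0.90, 0.91, 0.96 and 0.92 in tumor-free CDPs and 1.1, 0.75, 0.90 and 1.03 in tumor-bearing CDPs. Every CDP array was above every MDP array, and Ccnb2 passed the FDR in tumor-bearing mice (0.55, SE 0.13, limma adjusted p = 0.0185) and missed it in tumor-free mice (0.43, limma adjusted p = 0.0637). Cdc25b, a phosphatase that activates cyclin-CDK complexes, was at −1.67, −1.46, −2.15 and −2.01 in tumor-free MDPs, −1.66, −2.35, −1.59 and −2.06 in tumor-bearing MDPs, −1.24, −1.71, −0.99 and −0.45 in tumor-free CDPs and −1.45, −1.82, −0.99 and −1.35 in tumor-bearing CDPs. It had the largest difference of its role in tumor-free mice (0.73, limma adjusted p = 0.156), with the groups overlapping, and both comparisons of CDPs with MDPs called it when slide was a block (0.73 and 1.01).

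Aurkb was at 0.41, −0.66, 0.50 and 0.37 in tumor-free MDPs, −0.59, 0.57, −0.44 and 0.52 in tumor-bearing MDPs, 0.64, 0.67, 0.96 and −0.45 in tumor-free CDPs and 1.05, 0.84, 1.02 and 0.79 in tumor-bearing CDPs. The array of each group on slide 1 was its lowest, and the tumor-bearing CDPs, which have no array there, had the largest difference from MDPs of this role (0.91, limma adjusted p = 0.129). Without slide 1 that difference was 0.38. Cdk1, the kinase that drives entry into mitosis, was at 1.59, 0.86, 1.61 and 1.52 in tumor-free MDPs, 0.80, 1.62, 1.06 and 1.67 in tumor-bearing MDPs, 1.61, 1.59, 1.84 and 0.74 in tumor-free CDPs and 1.93, 1.63, 1.88 and 1.58 in tumor-bearing CDPs. It was again lowest on slide 1, and its difference was 0.05 in tumor-free mice. Ccna2, cyclin A2 of S and G2 phase, was at 0.59, 1.30, 0.53 and 0.43 in tumor-free MDPs, 1.78, 0.90, 1.53 and 0.98 in tumor-bearing MDPs, 1.09, 0.89, 1.02 and 1.51 in tumor-free CDPs and 1.27, 0.84, 1.46 and 1.11 in tumor-bearing CDPs. It was the only gene of this role with a lower mean in tumor-bearing CDPs than in tumor-bearing MDPs (−0.13, limma adjusted p = 0.717). The remaining kinases and cyclins (Ccnb1, Cdc25c, Plk1 and Aurka) had differences between 0.18 and 0.40 in tumor-free mice and between 0.16 and 0.44 in tumor-bearing mice. The position printed for the Ccnb1 probe is on another chromosome than the gene in RefSeq, and the same holds for the probes of Mcm7, Pcna, Rrm2 and Ccnd3.

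The spindle checkpoint and APC/C genes were higher in CDPs for 6 of 6 in tumor-free mice (median 0.17) and for 3 of 6 in tumor-bearing mice (median 0.09), with 0 called and a limma p under 0.05 for 1 and 3. Cdc20, which activates the APC/C, was at 3.76, 3.57, 3.86 and 3.69 in tumor-free MDPs, 3.72, 3.98, 3.79 and 4.04 in tumor-bearing MDPs, 3.98, 3.79, 3.99 and 3.82 in tumor-free CDPs and 4.13, 4.14, 4.20 and 4.12 in tumor-bearing CDPs. Tumor-bearing CDPs were above all other groups, with differences of 0.26 from tumor-bearing MDPs (limma adjusted p = 0.172) and 0.25 from tumor-free CDPs (limma adjusted p = 0.384). Over the alternatives the difference from tumor-free CDPs ran from −0.03 to 0.28, so that its direction was not kept. Bub1b, the checkpoint kinase BubR1, was at −0.08, 0.66, −0.24 and −0.12 in tumor-free MDPs, 0.72, 0.17, 0.79 and −0.02 in tumor-bearing MDPs, 0.61, 0.20, 0.31 and 1.1 in tumor-free CDPs and 0.33, 0.11, 0.43 and 0.45 in tumor-bearing CDPs. Bub1, its partner at the kinetochore, was at 0.27, 1.1, 0.26 and 0.32 in tumor-free MDPs, 1.43, 0.36, 1.23 and 0.28 in tumor-bearing MDPs, 0.56, 0.28, 0.50 and 1.03 in tumor-free CDPs and 0.50, 0.25, 0.88 and 0.28 in tumor-bearing CDPs. Both were highest on slide 1, and their differences went from −0.08 and −0.35 in tumor-bearing mice to 0.26 and 0.15 without it.

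Mad2l1, the checkpoint protein that binds Cdc20, was at 2.76, 2.49, 3.23 and 2.82 in tumor-free MDPs, 2.19, 2.62, 2.20 and 2.70 in tumor-bearing MDPs, 3.15, 3.32, 3.13 and 2.37 in tumor-free CDPs and 3.13, 3.28, 2.99 and 2.75 in tumor-bearing CDPs. It was lowest on slide 1, and its difference in tumor-bearing mice was 0.61 (limma adjusted p = 0.116) with the groups apart, and 0.38 without slide 1. The other probes of Mad2l1, 2 in number, gave −0.09 and −0.26 in the same comparison. Ttk, the kinase Mps1 at the top of the checkpoint, was at −0.20, −0.10, −0.38 and −0.23 in tumor-free MDPs, 0.29, −0.53, 0.29 and −0.39 in tumor-bearing MDPs, 0.18, −0.29, −0.22 and 0.07 in tumor-free CDPs and −0.32, −0.66, −0.04 and −0.48 in tumor-bearing CDPs. There was overlap of the groups in every comparison. Ube2c, the ubiquitin-conjugating enzyme of the APC/C, had CDP arrays above MDP arrays in tumor-free mice (0.44, limma adjusted p = 0.097). Its second probe passed both the FDR and the fold limit in tumor-bearing mice (0.60, limma adjusted p = 0.0385). The brighter probe, on which the counts of calls rest, gave 0.32 there.

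Genes of the spindle, the kinetochore and cytokinesis were higher in CDPs throughout, with 10 of 10 above 0 in both states and medians of 0.49 and 0.37. Nusap1, a microtubule-binding protein of the spindle, was at 1.55, 1.23, 1.41 and 1.41 in tumor-free MDPs, 1.37, 1.33, 1.07 and 1.58 in tumor-bearing MDPs, 2.26, 2.15, 2.26 and 1.91 in tumor-free CDPs and 2.24, 1.71, 2.06 and 2.07 in tumor-bearing CDPs. Each of the 8 CDP arrays was above each of the 8 MDP arrays. The difference was 0.75 in tumor-free mice (SE 0.15, limma adjusted p = 0.00945, exact permutation p = 0.0286) and 0.68 in tumor-bearing mice (SE 0.15, limma adjusted p = 0.0163, exact permutation p = 0.0286), and both were called. Without slide 1 they were 0.77 (limma adjusted p = 0.0162) and 0.56 (limma adjusted p = 0.0899), so that the second was no longer called.

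Prc1, which bundles the microtubules of the midzone, was at 1.99, 2.04, 2.03 and 1.98 in tumor-free MDPs, 1.87, 2.24, 2.13 and 2.27 in tumor-bearing MDPs, 2.57, 2.47, 2.80 and 2.46 in tumor-free CDPs and 2.56, 2.57, 2.81 and 2.55 in tumor-bearing CDPs. Its CDP and MDP arrays did not overlap, and it passed the FDR but not the fold limit in both states (0.57, limma adjusted p = 0.0182, and 0.49, limma adjusted p = 0.0347). Cenpa, the histone H3 variant of centromeres, was at 0.77, 0.78, 1.02 and 0.97 in tumor-free MDPs, 0.86, 0.87, 0.64 and 1.08 in tumor-bearing MDPs, 1.45, 1.23, 1.50 and 1.32 in tumor-free CDPs and 1.34, 1.20, 1.34 and 1.68 in tumor-bearing CDPs. Again the CDP arrays were the higher ones throughout, with 0.49 (limma adjusted p = 0.057) and 0.53 (limma adjusted p = 0.0377), the second past the FDR and under the fold limit. Cenpe, a kinetochore motor, was at 1.43, 1.25, 1.52 and 1.19 in tumor-free MDPs, 1.32, 1.23, 1.34 and 1.17 in tumor-bearing MDPs, 1.86, 1.73, 1.87 and 1.55 in tumor-free CDPs and 1.75, 1.55, 1.75 and 1.50 in tumor-bearing CDPs. Here too all CDP arrays were higher than all MDP arrays, with differences of 0.40 and 0.37 that missed the FDR.

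Kif23, the motor of the central spindle, was at 2.06, 2.61, 1.96 and 2.10 in tumor-free MDPs, 2.35, 1.91, 2.31 and 2.14 in tumor-bearing MDPs, 2.83, 2.57, 2.83 and 2.95 in tumor-free CDPs and 2.17, 2.06, 2.33 and 2.58 in tumor-bearing CDPs. Its difference was 0.61 in tumor-free mice (limma adjusted p = 0.0525) and 0.11 in tumor-bearing mice, and the first was called without slide 1 (0.70, limma adjusted p = 0.0281). Birc5, survivin of the passenger complex, was at 3.8, 3.82, 3.74 and 3.69 in tumor-free MDPs, 3.74, 3.88, 4.11 and 3.95 in tumor-bearing MDPs, 4.08, 3.94, 4.07 and 3.75 in tumor-free CDPs and 3.94, 4.02, 4.11 and 3.89 in tumor-bearing CDPs. Its differences were 0.20 and 0.07, and its other probes gave 0.26 and 0.59, and 0.44 and 0.22. Cenpf, a kinetochore protein whose probe was dim, was at −4.33, −4.59, −5.01 and −6.84 in tumor-free MDPs, −3.93, −4.52, −7.47 and −4.18 in tumor-bearing MDPs, −3.29, −3.91, −4.28 and −4.94 in tumor-free CDPs and −5.86, −2.93, −4.22 and −5.44 in tumor-bearing CDPs. Its difference in tumor-free mice, the largest of the role, was 1.09 with an SE of 0.82. Kif20a, a motor of cytokinesis, was at −0.72, −0.25, −0.70 and −0.29 in tumor-free MDPs, −0.01, −0.62, 0.03 and −0.50 in tumor-bearing MDPs, −0.38, −0.38, −0.30 and 0.04 in tumor-free CDPs and −0.30, −0.08, −0.05 and −0.23 in tumor-bearing CDPs. Its groups overlapped in every comparison. Kif11 and Tpx2, a motor and an assembly factor of the bipolar spindle, had differences of 0.49 and 0.23 in tumor-free mice and 0.36 and 0.12 in tumor-bearing mice, and none was called, although the CDP arrays of Kif11 lay above its MDP arrays in tumor-free mice.

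Of the pair grouped under chromosome structure, Mki67, the coat protein of mitotic chromosomes used as a proliferation marker, was at 2.68, 2.17, 2.84 and 2.32 in tumor-free MDPs, 2.16, 2.66, 2.13 and 2.60 in tumor-bearing MDPs, 2.88, 3.09, 2.91 and 2.50 in tumor-free CDPs and 3.21, 3.13, 3.14 and 2.78 in tumor-bearing CDPs. Its difference was 0.34 in tumor-free mice and 0.68 in tumor-bearing mice, where the groups did not overlap and limma's adjusted p was 0.0504, and it was called after quantile normalization. The second Mki67 probe gave 0.52 and 0.32, so that the probes differ in which state shows more. Top2a, the topoisomerase that untangles chromosomes, was at 0.55, 0.58, 0.46 and 0.07 in tumor-free MDPs, 0.79, 0.27, 0.72 and 0.14 in tumor-bearing MDPs, 0.67, 0.58, 0.79 and 1.23 in tumor-free CDPs and 0.74, 0.47, 0.98 and 0.65 in tumor-bearing CDPs. The differences were 0.40 and 0.23, and the groups were apart by a narrow margin in tumor-free mice only.

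S-phase entry genes were higher in CDPs for 4 of 4 in both states, and E2f2 had the smallest adjusted p of all members. E2f2, an activator E2F, was at 1.61, 1.78, 1.68 and 1.36 in tumor-free MDPs, 1.88, 1.81, 1.94 and 1.76 in tumor-bearing MDPs, 3.0, 2.88, 3.20 and 2.85 in tumor-free CDPs and 3.28, 3.46, 3.60 and 3.05 in tumor-bearing CDPs. Every CDP array was far above every MDP array. The difference was 1.37 in tumor-free mice (2.59-fold, SE 0.15, limma adjusted p = 9.52e-05) and 1.50 in tumor-bearing mice (2.83-fold, SE 0.15, limma adjusted p = 3.82e-05). Without slide 1 the values were 1.48 and 1.56, both called.

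E2f1, a related activator, was at 2.70, 2.28, 2.31 and 2.49 in tumor-free MDPs, 2.11, 2.54, 2.14 and 3.06 in tumor-bearing MDPs, 2.46, 2.52, 2.70 and 2.44 in tumor-free CDPs and 2.40, 2.35, 2.55 and 2.56 in tumor-bearing CDPs. Its differences of 0.09 and 0.00 were the smallest of this role. Ccne2, an E-type cyclin whose probe was dim, was at −3.56, −5.68, −3.35 and −3.36 in tumor-free MDPs, −4.56, −4.28, −3.69 and −3.51 in tumor-bearing MDPs, −2.55, −3.19, −2.60 and −3.95 in tumor-free CDPs and −2.34, −2.43, −2.04 and −2.88 in tumor-bearing CDPs. In tumor-bearing mice its CDP arrays were all above its MDP arrays (1.59, SE 0.48, limma adjusted p = 0.0594), and it was called without slide 1 (1.47, limma adjusted p = 0.0182). Ccne1, the other E-type cyclin, was at 0.99, 1.56, 0.70 and 1.18 in tumor-free MDPs, 1.82, 1.65, 2.28 and 1.35 in tumor-bearing MDPs, 1.36, 1.21, 1.76 and 2.02 in tumor-free CDPs and 2.08, 2.02, 2.15 and 1.78 in tumor-bearing CDPs. Its groups overlapped in both comparisons (0.48 and 0.23).

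The genes that copy DNA did not separate CDPs from MDPs. Of 12 licensing and helicase genes, 4 were higher in tumor-free CDPs and 2 in tumor-bearing CDPs, and the differences lay between −0.21 and 0.26 and between −0.25 and 0.10. Mcm3, a helicase subunit, was at 3.27, 3.49, 3.16 and 3.09 in tumor-free MDPs, 3.27, 3.13, 3.46 and 3.41 in tumor-bearing MDPs, 2.85, 2.95, 3.05 and 3.30 in tumor-free CDPs and 3.05, 3.02, 3.33 and 3.13 in tumor-bearing CDPs. Mcm7, another, was at 3.63, 3.89, 3.58 and 3.70 in tumor-free MDPs, 3.90, 3.82, 3.65 and 3.87 in tumor-bearing MDPs, 3.47, 3.59, 3.57 and 3.72 in tumor-free CDPs and 3.50, 3.45, 3.61 and 3.67 in tumor-bearing CDPs. Mcm6 was at 4.04, 3.85, 3.97 and 3.73 in tumor-free MDPs, 3.55, 4.0, 3.50 and 4.01 in tumor-bearing MDPs, 3.82, 3.92, 3.91 and 3.63 in tumor-free CDPs and 3.78, 4.02, 4.05 and 3.64 in tumor-bearing CDPs. All 3 sets of values overlap between CDPs and MDPs in both states, and the subunits Mcm2, Mcm4 and Mcm5 had differences between −0.21 and 0.08.

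Cdc45, which completes the active helicase, was at 0.97, 0.73, 0.75 and 0.71 in tumor-free MDPs, 1.15, 1.40, 1.46 and 1.19 in tumor-bearing MDPs, 0.90, 0.89, 1.24 and 1.16 in tumor-free CDPs and 0.78, 1.38, 1.43 and 1.11 in tumor-bearing CDPs. Its CDPs differed from its MDPs by 0.26 without a tumor and by −0.13 with one. Gins1, a GINS subunit, was at 2.14, 1.72, 1.85 and 1.98 in tumor-free MDPs, 2.10, 2.27, 2.02 and 2.29 in tumor-bearing MDPs, 1.97, 1.89, 2.06 and 1.69 in tumor-free CDPs and 2.12, 2.10, 2.27 and 2.07 in tumor-bearing CDPs. Cdc6 was at 0.38, 1.19, 0.06 and 0.09 in tumor-free MDPs, 0.79, −0.04, 0.90 and 0.12 in tumor-bearing MDPs, 0.11, 0.27, 0.12 and 1.36 in tumor-free CDPs and 0.42, 0.01, 0.56 and 0.37 in tumor-bearing CDPs. Cdc6 was highest on slide 1, and neither separated CDPs from MDPs. Gins2, Mcm10 and Cdt1 had differences between −0.24 and 0.11 over both comparisons, and limma called none of the 12, with an unadjusted p under 0.05 for 0 in either comparison.

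Polymerase, primase and clamp genes, 7 in all, had differences between −0.22 and 0.15 in tumor-free mice and between −0.53 and 0.26 in tumor-bearing mice. Pola1 was at 0.77, 1.63, 0.25 and 0.57 in tumor-free MDPs, 1.16, 0.33, 1.38 and 0.32 in tumor-bearing MDPs, 0.29, 0.31, 0.33 and 1.41 in tumor-free CDPs and 0.30, 0.07, 0.45 and 0.25 in tumor-bearing CDPs. Its difference of −0.53 in tumor-bearing mice was −0.06 without slide 1, whose 4 arrays were its highest. Pcna, the sliding clamp, was at 2.93, 3.14, 3.21 and 3.03 in tumor-free MDPs, 2.98, 3.11, 2.94 and 3.18 in tumor-bearing MDPs, 3.36, 3.16, 3.02 and 3.31 in tumor-free CDPs and 3.41, 3.35, 3.52 and 2.99 in tumor-bearing CDPs. Pold1, the catalytic subunit of polymerase delta, was at 2.89, 2.50, 2.71 and 2.90 in tumor-free MDPs, 2.47, 3.02, 2.39 and 2.72 in tumor-bearing MDPs, 3.03, 3.01, 3.05 and 2.52 in tumor-free CDPs and 2.62, 2.77, 2.80 and 2.73 in tumor-bearing CDPs. Both overlapped between the progenitors.

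Rfc4, a subunit of the clamp loader, was at 2.10, 1.83, 2.37 and 2.16 in tumor-free MDPs, 1.76, 2.30, 1.87 and 2.28 in tumor-bearing MDPs, 2.02, 2.07, 2.09 and 1.63 in tumor-free CDPs and 2.20, 2.21, 2.15 and 1.97 in tumor-bearing CDPs. Rfc3, another loader subunit, was at 1.50, 1.71, 1.59 and 1.90 in tumor-free MDPs, 1.57, 2.16, 1.76 and 1.81 in tumor-bearing MDPs, 1.82, 1.67, 1.62 and 1.66 in tumor-free CDPs and 1.86, 1.82, 1.79 and 1.64 in tumor-bearing CDPs. Prim1, the primase subunit, was at 1.24, 1.52, 1.11 and 1.36 in tumor-free MDPs, 1.60, 1.11, 1.37 and 1.17 in tumor-bearing MDPs, 1.23, 1.25, 1.23 and 1.58 in tumor-free CDPs and 1.17, 0.93, 1.21 and 0.94 in tumor-bearing CDPs. None of these separated the groups of CDPs from those of MDPs, and Pole, the catalytic subunit of polymerase epsilon, had differences of 0.07 and −0.01.

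The genes of nucleotide supply were 2 higher and 2 lower in tumor-free CDPs. Rrm1, the large subunit of ribonucleotide reductase, was at 1.38, 2.09, 1.14 and 1.31 in tumor-free MDPs, 2.26, 1.64, 2.11 and 1.50 in tumor-bearing MDPs, 1.19, 1.06, 1.41 and 2.11 in tumor-free CDPs and 1.53, 1.30, 1.69 and 1.47 in tumor-bearing CDPs. It was highest on slide 1. Rrm2, the small subunit, was at 2.57, 3.07, 2.57 and 2.53 in tumor-free MDPs, 3.30, 2.88, 3.14 and 2.61 in tumor-bearing MDPs, 2.82, 2.77, 2.81 and 3.29 in tumor-free CDPs and 2.71, 3.15, 3.20 and 3.07 in tumor-bearing CDPs. Tk1, thymidine kinase, was at 3.01, 2.93, 2.88 and 2.91 in tumor-free MDPs, 2.88, 3.03, 2.82 and 3.22 in tumor-bearing MDPs, 2.99, 3.05, 3.07 and 3.02 in tumor-free CDPs and 2.99, 2.88, 3.10 and 3.04 in tumor-bearing CDPs. It stayed within −0.03 and 0.10 in the 4 comparisons of groups. Tyms, thymidylate synthase, was at −0.58, −2.88, −3.43 and −3.04 in tumor-free MDPs, −2.63, −3.18, −3.84 and −3.32 in tumor-bearing MDPs, −3.34, −3.61, −2.66 and −3.54 in tumor-free CDPs and −2.95, −2.33, −3.67 and −2.85 in tumor-bearing CDPs. Its difference of −0.81 in tumor-free mice (limma adjusted p = 0.53) came with 1 tumor-free MDP array, numbered 2, at −0.58, where the other 15 arrays were at −2.33 or lower.

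The 6 G1 regulators held 2 of the 4 calls without a tumor and 5 of the 7 with one. Ccnd3, a D-type cyclin, was at 2.45, 2.18, 2.24 and 2.42 in tumor-free MDPs, 2.44, 2.70, 2.64 and 2.40 in tumor-bearing MDPs, 3.27, 2.98, 3.43 and 2.88 in tumor-free CDPs and 3.32, 3.33, 3.72 and 3.09 in tumor-bearing CDPs. All CDP arrays were above all MDP arrays, with differences of 0.82 in tumor-free mice (SE 0.17, limma adjusted p = 0.00841) and 0.82 in tumor-bearing mice (SE 0.17, limma adjusted p = 0.00875), both called. Without slide 1 they were 0.86 (limma adjusted p = 0.0242) and 0.81 (limma adjusted p = 0.0498). The position printed for this probe is not on the chromosome of Ccnd3, and a second probe of the gene gave 1.02 (limma adjusted p = 0.00369) and 0.99 (limma adjusted p = 0.00467).

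Cdkn2c, the inhibitor p18 of Cdk4 and Cdk6, was at 0.30, 0.63, 0.30 and 0.21 in tumor-free MDPs, 0.02, −0.36, 0.11 and 0.06 in tumor-bearing MDPs, 1.07, 1.17, 1.50 and 1.51 in tumor-free CDPs and 1.38, 0.79, 1.12 and 1.15 in tumor-bearing CDPs. CDP arrays were the higher ones without overlap, by 0.96 in tumor-free mice (1.94-fold, SE 0.17, limma adjusted p = 0.00388) and by 1.15 in tumor-bearing mice (2.22-fold, SE 0.17, limma adjusted p = 0.00111). Cdkn1b, the inhibitor p27, was at 2.30, 2.39, 2.48 and 2.20 in tumor-free MDPs, 2.03, 2.20, 1.73 and 2.55 in tumor-bearing MDPs, 2.92, 2.78, 2.93 and 2.77 in tumor-free CDPs and 2.88, 2.62, 2.83 and 2.92 in tumor-bearing CDPs. It was higher in CDPs in both states with no overlap, past the FDR in tumor-bearing mice only (0.69, limma adjusted p = 0.0189, against 0.51, limma adjusted p = 0.0829), and the difference between the states was 0.18 (limma adjusted p = 0.777). Without slide 1 the call in tumor-bearing mice was lost (0.44, limma adjusted p = 0.159). The tumor-bearing calls of Ccnd2, Ccnd3, Cdkn1b and Nusap1 were also lost with only the groups compared and with the methods' two-sample test. The latter is the unpaired t test of the study's general statistics, which its array methods do not name. The call of Cdkn1a was lost with this test and with the mean of all tested probes of a gene. Those of Cdkn1b and Nusap1 were lost without the tumor-bearing MDP array numbered 4 or the tumor-bearing CDP array numbered 2, and that of Cdkn1b also without the tumor-bearing MDP array 2 or the tumor-bearing CDP array 5.

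**Figure D4:**
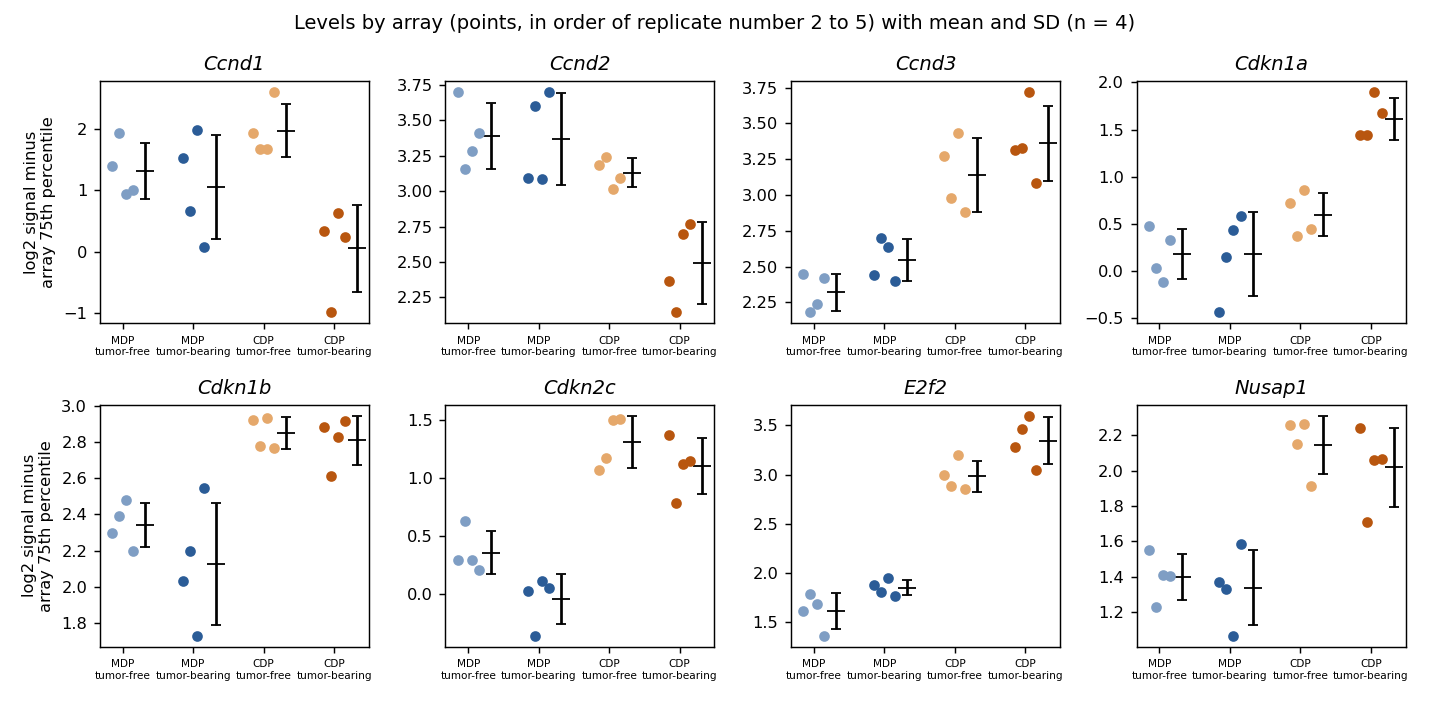
Levels of 8 members (log2 signal minus the 75th percentile of the array, y axis) on the 16 arrays (points, in the order of replicate numbers 2 to 5) by group (x axis), with group mean and SD (n = 4). E2f2, Nusap1, Ccnd3 and Cdkn2c lie higher in both CDP groups than in both MDP groups, and Ccnd1, Ccnd2 and Cdkn1a set the tumor-bearing CDPs apart from the tumor-free CDPs.

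The study asked how a tumor alters these progenitors, and within CDPs no replication or mitosis gene was called while 2 G1 regulators were. Called members were 2 of 60, against 1.79% of all tested probes, with 1 higher (background 0.802%) and 1 lower (background 0.988%). Counts this small are near those shares, and no difference between the lists is read from them. Of the 54 replication and mitosis genes limma called 0, and 2 of them had an unadjusted p under 0.05, where 13.7% of all probes did. The two-sample test of the study's general statistics, not named for its arrays, called 0 of 60. The median change was 0.05 for replication genes and 0.03 for mitosis genes, beside 0.08 for all probes, of which 57.7% were above 0. Both list medians turned negative after quantile normalization (−0.10 and −0.11, with all probes at 0.03), so that no direction is read from them.

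Ccnd1, cyclin D1, was at 1.39, 1.94, 0.94 and 1.0 in tumor-free MDPs, 1.52, 0.65, 1.97 and 0.08 in tumor-bearing MDPs, 1.93, 1.68, 1.67 and 2.60 in tumor-free CDPs and 0.34, −0.98, 0.63 and 0.24 in tumor-bearing CDPs. In tumor-bearing CDPs all 4 arrays were below all 4 of the tumor-free CDPs, a fall of 1.91 log2 units (3.76-fold lower, SE 0.43, limma adjusted p = 0.0383, exact permutation p = 0.0286). Without slide 1, which held the highest tumor-free array, the change was −1.70 (limma adjusted p = 0.0437). The change kept its sign in all alternatives, between −2.10 and −1.57, but its adjusted p ran from 0.0136 to 0.148. In MDPs the arrays overlapped, with a change of −0.26.

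Cdkn1a, the inhibitor p21, was at 0.47, 0.03, −0.11 and 0.32 in tumor-free MDPs, −0.44, 0.15, 0.43 and 0.58 in tumor-bearing MDPs, 0.71, 0.37, 0.86 and 0.44 in tumor-free CDPs and 1.44, 1.44, 1.90 and 1.67 in tumor-bearing CDPs. The 4 tumor-bearing CDP arrays were above the other 12 arrays, and the rise over tumor-free CDPs was 1.02 (2.02-fold, SE 0.22, limma adjusted p = 0.0333, exact permutation p = 0.0286). Without slide 1 it was 0.96 (limma adjusted p = 0.0507), which misses the threshold. A second, dimmer probe, above background on 12 arrays, gave 1.32 (limma adjusted p = 0.752), and the mean of both probes was not called (1.17, limma adjusted p = 0.505). Against tumor-bearing MDPs the difference of tumor-bearing CDPs was 1.43 (limma adjusted p = 0.00141), and it was called, though not with the mean of both probes, while the difference in tumor-free mice was 0.42 (limma adjusted p = 0.383).

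Ccnd2, cyclin D2, was at 3.70, 3.16, 3.28 and 3.41 in tumor-free MDPs, 3.09, 3.60, 3.09 and 3.70 in tumor-bearing MDPs, 3.18, 3.24, 3.01 and 3.09 in tumor-free CDPs and 2.37, 2.15, 2.69 and 2.77 in tumor-bearing CDPs. Its tumor-bearing CDPs were again apart from and below the tumor-free ones (−0.64, SE 0.19), with limma's adjusted p at 0.116, and it was called after quantile normalization and with slide as a block (−0.67, limma adjusted p = 0.023). Against tumor-bearing MDPs it was lower by 0.87 and called (limma adjusted p = 0.0127). The calls of Ccnd1 and Cdkn1a with tumor were both lost when any 1 of 8 arrays was left out: the tumor-free MDP array numbered 5, the tumor-free CDP arrays numbered 2, 3 and 5, and each tumor-bearing CDP array. Ccnd1 alone was also lost without the arrays numbered 2 of the tumor-free MDPs and 4 of the tumor-free CDPs. Kit and the neutrophil and erythroid sums differed between the same arrays, as given above, and their part in these changes was not tested.

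**Figure D5:**
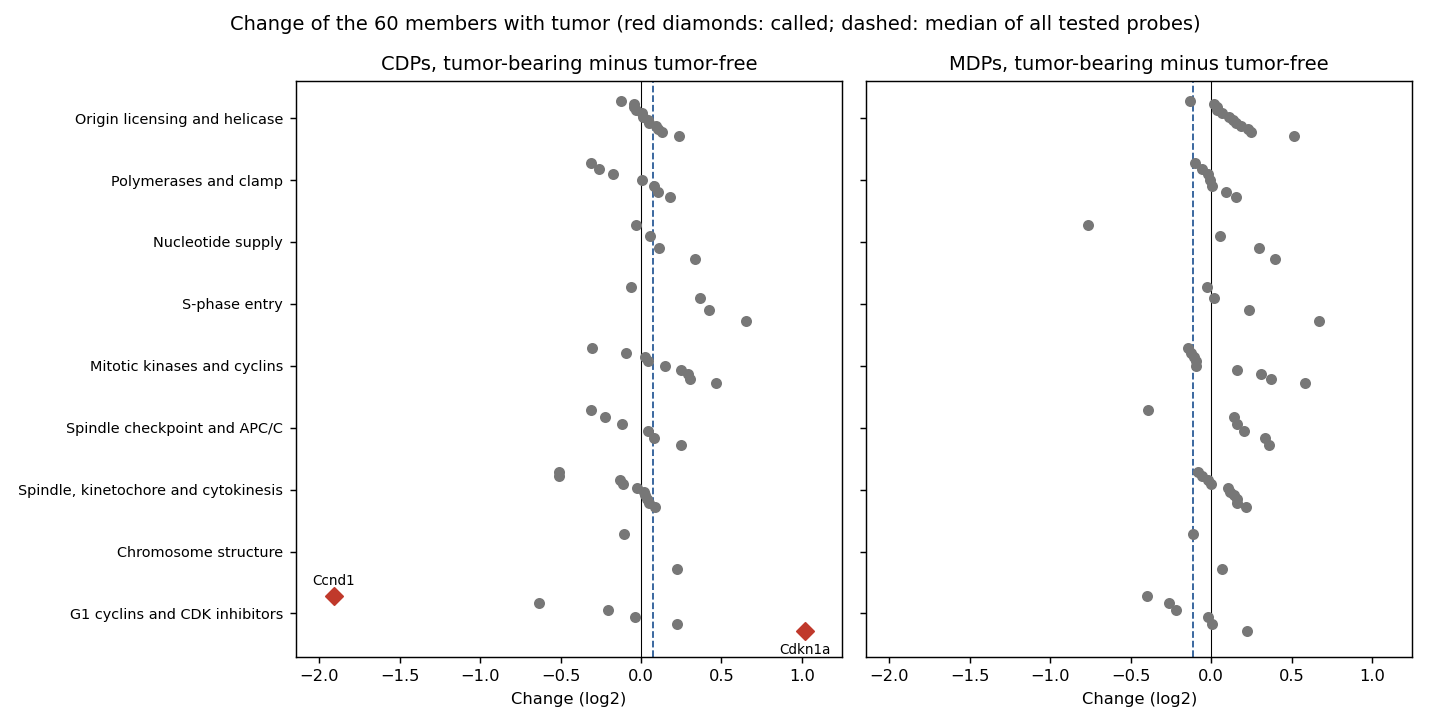
Change of each of the 60 members with tumor (log2, x axis) by role (y axis), in CDPs (left) and in MDPs (right). Red diamonds are called members and the dashed line is the median of all tested probes (0.08 in CDPs and −0.11 in MDPs), and Ccnd1 and Cdkn1a are the 2 called members, both in CDPs.

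Among the members that were not called, the groups of CDPs did not overlap for Gins1 (0.24), Cdc20 (0.25), Prim1 (−0.26) and Ccnd2, which with the called pair made 6 of 60 (3 higher and 3 lower), against 11.1% of all probes (5.79% higher and 5.32% lower). The largest changes of the replication roles were those of Ccne2 (0.65, SE 0.48), Ccne1 (0.42), E2f2 (0.36) and Tyms (0.33, SE 0.51), and Ccne1 was called with slide as a block (0.60, limma adjusted p = 0.0367). The lowest were those of Pola1 (−0.31), which was −0.04 without slide 1, Prim1 and Pold1 (−0.17). Among mitosis genes the largest were Aurkb (0.46, and 0.16 without slide 1), Cdk1 (0.31, and 0.07 without slide 1) and Aurka (0.29), and the lowest were Kif23 (−0.51, limma adjusted p = 0.18), Cenpf (−0.51, SE 0.82), Ttk (−0.31) and Cdc25b (−0.31). For Mki67 the 95% interval of the change ran from −0.20 to 0.64, for Mcm6 from −0.29 to 0.39 and for Prc1 from −0.23 to 0.33.

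In MDPs limma called 0 of 60 members with tumor, against 0.062% of all probes, and 5 members had an unadjusted p under 0.05, where 10.4% of all probes did. The median change was 0.07 for replication genes and 0.12 for mitosis genes, beside −0.11 for all probes (39.8% above 0), whose median was 0.00 after quantile normalization, where the list medians were 0.06 and 0.12. Without slide 1 they were 0.15 and 0.06. Of the 12 licensing and helicase genes 11 were above 0, with a median of 0.13. Mcm2, Mcm10, Cdc6 and Cdt1 of this role were higher on slide 1, which held 2 tumor-bearing MDP arrays and 1 tumor-free. Of the 27 replication genes 20 were above 0, against 17 with slide as a block and 22 without slide 1. The groups did not overlap for Cdc45 (0.51, SE 0.16, limma adjusted p = 0.329) and for Cdkn2c (−0.40, SE 0.17, limma adjusted p = 0.459), 2 of 60 against 5.21% of all probes (2.79% higher and 2.42% lower).

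For the other 58 members the groups of MDPs overlapped. The largest of these changes were Ccne1 (0.67), Ccna2 (0.59), Rrm1 (0.40), Ccnb1 (0.37) and Bub1b (0.36), and without slide 1 those of Ccna2, Rrm1 and Bub1b were 0.43, 0.29 and 0.22. The lowest were Tyms (−0.76, which includes the high array named above), Mad2l1 (−0.39) and Ccnd1 (−0.26). Of the G1 regulators, Ccnd3 was at 0.22, Cdkn1b at −0.22, Ccnd2 at −0.02 and Cdkn1a at 0.00.

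Whether the tumor change differed between CDPs and MDPs was tested as an interaction. Limma called 0 of 60 members, against 0.0146% of all probes (4 probes), and 3 members had an unadjusted p under 0.05, where 4.05% of all probes did. For Ccnd1 the difference of the changes was −1.65 (SE 0.60, limma adjusted p = 0.749) and for Cdkn1a it was 1.01 (SE 0.31, limma adjusted p = 0.749). Calls in CDPs and not in MDPs therefore do not show that these genes changed in CDPs alone. The largest positive difference was that of Tyms (1.1, SE 0.73).

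Further genes of the same pathways, from a list written for this comparison, were counted in the same way. Of 62 other mitosis genes tested, 57 were higher in CDPs of tumor-free mice (median 0.32) and 39 in CDPs of tumor-bearing mice (median 0.13), with 4 and 1 called. Of all tested probes 52.1% and 61.5% were higher (medians 0.02 and 0.19), and 6.07% and 7.24% were called. In tumor-bearing mice the other mitosis genes were thus near the share of all probes, with a median below theirs. By this share and median, the higher CDP levels of the mitosis members in that state were not repeated in this wider list. The median of all probes there was 0.02 without slide 1 and −0.003 after quantile normalization. The wider list was not recomputed with either change, so whether its median stays below that of all probes was not tested. Its CDP arrays lay above all MDP arrays for 8 of 62 genes (6.96% of all probes) and below them for 1 (6.98%). Foxm1, a transcription factor of G2 and M genes, was called in both (0.59, limma adjusted p = 0.0182, and 0.84, limma adjusted p = 0.00199), and Aspm (0.78), Dlgap5 (0.81) and Racgap1 (0.62) were called in tumor-free mice. Of 45 other replication genes 24 and 20 were higher, with medians of 0.03 and −0.03. Those called were Dna2, a nuclease, higher in CDPs in both states (0.95 and 0.68), Pole3, a polymerase epsilon subunit, lower in both (−0.66 and −0.66), Orc2, of the origin recognition complex, lower in tumor-free mice (−0.85), and Dck, deoxycytidine kinase, higher in tumor-bearing mice (0.79).

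Of 30 other G1 and checkpoint genes, 5 were called in tumor-free mice and 4 in tumor-bearing mice, beside the same 6.07% and 7.24% of all probes. Myc, a growth factor-responsive transcription factor, was lower in CDPs by 1.65 and 1.44 and Cdk6, a partner of the D-type cyclins, by 1.39 and 1.57. E2f7, a repressor E2F, was higher by 0.81 and 0.94, Cdkn2d, the inhibitor p19 of the Cdkn2c family, by 1.05 in tumor-free mice, and Atr, the checkpoint kinase, was lower by 0.59 and 0.68. With tumor, limma called 0 of the 62, 45 and 30 genes in either progenitor, and 2, 4 and 2 of them had an unadjusted p under 0.05 in CDPs and 2, 3 and 4 in MDPs. Of all probes 1.79% in CDPs and 0.062% in MDPs were called, and 13.7% and 10.4% had such a p.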

How the data were processed

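Each of the 16 arrays (4 per group, grouped by the labels) is a single-color Cy5 Agilent mouse array. Per the file headers the authors extracted intensities with Agilent Feature Extraction, and the deposited processed signal is an intensity after background subtraction and spatial detrending inside the array, with nothing done between arrays. The authors also deposited log2 values for 26793 probes. These matched the quantile-normalized log2 processed signal and served as an alternative only. How those probes were picked is not given in the sources used here. Probes are annotated on mm9. For 5 members the annotated chromosome is not that of the gene in RefSeq and 5 more have no position, so none is printed.

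Control spots (1377) and outlier spots (182 to 289 per array) were removed, the 75th percentile of the array (an intensity of 3633 to 4655) was subtracted on the log2 scale, and spots of a probe were averaged. No probe was saturated, and replicates correlated at r = 0.943 to 0.981. The 27433 probes that passed the filter entered a single limma fit of the 4 group means (limma 3.58.1, R 4.3.3) with Benjamini-Hochberg adjustment over all of them. The call (FDR under 0.05, fold change above 1.5) follows the study's methods, which name no test for the arrays. The methods' two-sample test, run as an alternative, is the unpaired t test of the study's general statistics. The tumor was compared with none in each progenitor, the changes were compared with each other, and the progenitors were compared with and without a tumor. Tumor and progenitor comparisons share arrays. The exact permutation tests of single genes are two-sided. The design text speaks of independent experiments without tying a sample to one. The number of arrays limits the precision. The fit was tested on simulated data with independent noise and no slide effect. That test cannot show how the fit behaves where slide 1 stands apart.

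Members and lists were chosen with earlier results of these data known. Full values are given for members that were called, whose groups did not overlap with tumor, that had the largest or smallest change of their role, or that regulate G1, and for Ccnb2, Prc1 and Cenpa, which passed the FDR alone. Of other pathway genes those called are named. Kif14 was matched to no probe, and Cdkn2a, Cdkn2b and Mycn were not tested.

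Replicate numbers were checked as pairs. Same-numbered arrays deviated from their group means with r between −0.69 and 0.48 (8 of 24 pairs over 0.1), so the numbers were not used, whereas arrays of a slide had a median r of 0.26 (19 of 22 pairs over 0.1). Alternatives changed the background correction (normexp, offset 50), the scaling (quantile, or the median of detected probes), the filter (none, or detection on every array), the source of values (the deposited table), the blocks (slide, replicate number), the arrays fitted, the test, the fold limit and the choice of probe, and left out each array. Leaving out slide 1, or its 2 tumor-free arrays, was chosen after seeing the data.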

Additional observations from a re-analysis of the deposited data

Results flagged for a closer look

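In 17 of 248 groups tested (6.85%), 1 array lay far from the other 3 of its group, where chance alone gives about 1 in 20. Of these, 6 were the tumor-free CDP array 5 and 5 the tumor-free MDP array 3, both on slide 1, and 4 were the tumor-bearing CDP array 4.

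The tumor-free CDP array 5 was high for Cdc6 (1.36, next 0.27), Pola1 (1.41, next 0.33), Prim1 (1.58, next 1.25) and Rrm2 (3.29, next 2.82), and low for Rfc4 (1.63, next 2.02) and Pold1 (2.52, next 3.01). The tumor-free MDP array 3 was high for Rrm2 (3.07, next 2.57) and Bub1 (1.1, next 0.32), and low for Ccne2 (−5.68, next −3.56), Cdk1 (0.86, next 1.52) and Aurkb (−0.66, next 0.37).

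The tumor-bearing CDP array 4 was high for Mcm2 (2.54, next 2.27), Mcm5 (1.59, next 1.22), Kif11 (0.58, next 0.15) and Prc1 (2.81, next 2.57). The tumor-free MDP array 2 was high for Cdc45 (0.97, next 0.75), and the tumor-bearing MDP array 4 was low for Cenpf (−7.47, next −4.52), a dim probe.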

How the results depend on the processing

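Of the values recomputed for lists and counts, 496 stayed within the limits set for no change and 91 moved; of those for single genes, 343 kept their side of the threshold and 47 lost it. For the tumor change in CDPs, probes called (491) were 1251 with slide as a block, 55 with only the groups compared, 3 with the methods' two-sample test, 161 without the 2 tumor-free arrays of slide 1, and 153 (without the tumor-bearing CDP array 4) to 578 when each array was left out. Members called (2) were 4 with slide as a block, 1 with no filter, with the mean of all probes or without slide 1, 0 with the replicate block, only the groups compared, the methods' test or without the 2 tumor-free arrays of slide 1, and 0 to 2 with an array left out. The list medians for replication and mitosis were −0.10 and −0.11 after quantile normalization and −0.094 and −0.10 in the deposited table.

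For the tumor change in MDPs, probes called (17) were 6 with normexp, 11 after quantile normalization, 10 with no filter, 11 with detection on all 16 arrays, 7 in the deposited table, 45 with slide as a block, 10 with the replicate block, 5 with only the groups compared, 1 with the methods' test, and 1 to 43 with an array left out. The replication median was 0.16 without the 2 tumor-free arrays of slide 1, 0.15 without slide 1, and 0.058 to 0.16 with an array left out, and the mitosis median was 0.010 to 0.13. For the difference of the tumor changes, probes called (4) were 0 with normexp, quantile normalization or the deposited table, 1 with detection on all arrays, 2 with slide as a block, 10 without the 2 tumor-free arrays of slide 1, and 3 to 7 with an array left out. Its mitosis median was −0.018 with normexp, 0.0063 with slide as a block and −0.015 without slide 1, and its replication median was 0.025 with slide as a block and −0.11 to −0.0052 with an array left out.

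For CDPs against MDPs, probes called were 2923 with slide as a block in tumor-free mice. In tumor-bearing mice they were 793 with only the groups compared, 587 with the methods' test, 1139 without slide 1, and 1126 to 3276 with an array left out. Members called there (7) were 4 with only the groups compared, 2 with the methods' test, 11 without the 2 tumor-free arrays of slide 1, and 5 to 11 with an array left out (11 without the tumor-bearing MDP array 5). The mitosis median there was 0.23 after quantile normalization and in the deposited table, and 0.25 to 0.40 with an array left out. The cause of these shifts was not tested.

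The replicate block, which rests on numbers that did not pair the samples, ended the calls of Ccnd1 and Cdkn1a and left 371 probes called for the tumor change in CDPs. In tumor-bearing mice the call of Cdkn1b was lost without the tumor-bearing MDP arrays 2 or 4 or the tumor-bearing CDP arrays 2 or 5, and that of Nusap1 without the tumor-bearing MDP array 4 or CDP array 2. With 4 arrays a group, small changes of single genes can be missed, and cell-cycle phase was not measured.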
